A study of Mus musculus with 2 samples.

Results

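Trem2, Apoe, Gpnmb, Lpl, Fabp5, Spp1, Cd36, Plin2, Lgals3 and Cd9 are genes often used to describe lipid-handling macrophages. These 10 genes, of 27998 in each count table, were chosen by name. Their levels were followed in both libraries across monocytes, macrophage states, dendritic cells and collagen-rich cells, which were set apart by raw counts of other genes. TREM2 is a surface receptor of macrophages that binds lipids and lipoproteins, among them apolipoprotein E, and signals through the adaptor TYROBP. Macrophages that take up much lipid use receptors such as CD36, hydrolyse lipoprotein fat with secreted lipoprotein lipase (Lpl), carry fatty acids on binding proteins such as FABP5, keep them in droplets coated by perilipin 2 (Plin2) and return cholesterol to lipoproteins through APOE. GPNMB, osteopontin (Spp1), galectin-3 (Lgals3) and the tetraspanin CD9 are commonly listed beside TREM2 in macrophages of tumours, injured tissue and fat.

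The cells were live CD45+ cells sorted with 7AAD from subcutaneous tumours of C57BL/6J mice aged 6 to 8 weeks, either WT or CD94-KO, and counted by droplet-based 3′ RNA sequencing. CD94, encoded by Klrd1, pairs with NKG2 receptors on natural killer and T cells. There was 1 library for each genotype, described by the submitters as derived from 5 tumour-bearing mice, with no map from cells to mice. The tumour line, the way CD94 was deleted and any treatment were not given in the sources used here.

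With 1 library a group there is no replicate check and no test: every interval below covers counting error only, and a difference between genotypes cannot be told apart from a difference between these libraries. After filters, 4388 WT and 4574 CD94-KO cells were kept, with medians of 4751.5 and 7798 UMIs (unique molecular identifiers, 1 for each RNA molecule counted). The files shared 8 barcodes, 4 of them among kept cells. Klrd1 stood at 463 CPM in WT and 277 CPM in CD94-KO lymphoid cells. Because 3′ counts can come from outside a deleted part, these values check neither label.

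Gates and levels were read as follows. Monocytes and macrophages all had Lyz2 counts together with counts of macrophage genes such as Csf1r, Adgre1 and Fcgr1. Monocytes had Ly6c2 or Hp and few C1q counts (384 WT and 780 CD94-KO cells). Macrophages with Arg1 numbered 205 and 397, those with both Arg1 and Nos2 or Cxcl9 numbered 154 and 280, those with Nos2 or Cxcl9 alone 105 and 180, and those with C1q genes and neither of these 97 and 164. The other base cells, which met the Lyz2 and receptor minimums alone, numbered 144 and 145. All 6 groups together formed the pooled class of 1089 WT and 1946 CD94-KO cells, with median depths of 9685 and 9949.5 UMIs. Conventional type 2 dendritic cells (cDC2, 139 and 193 cells) had Cd209a or Flt3, and mature regulatory dendritic cells (mregDC, 157 and 224 cells) had Ccr7 or Fscn1. The collagen-rich cells had type I and III collagen counts and at most 1 Ptprc (CD45) UMI. They numbered 72 and 42, so the CD94-KO group was under 50 cells, and their median depths were 52911 and 42305.5 UMIs. Conventional type 1 and plasmacytoid dendritic cells and neutrophils had under 50 cells in at least 1 library and are not described.

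The gates were checked on longer marker lists. Cd68 and Mrc1, macrophage markers that set no gate, stood in the pooled class at 333 and 131 CPM in WT and at 347 and 204 CPM in CD94-KO. Of the 5 melanocyte or melanoma markers, 4 were at 0 in the WT pooled class and 3 in the CD94-KO pooled class. Summed neutrophil markers in the pooled class were 345 and 143 CPM, summed monocyte markers 4104 and 5124 CPM, and summed lymphoid markers 13.2 and 7.22 CPM. The lymphoid markers are the genes by which the gates left lymphoid cells out. Their low sum is therefore set by the gates and does not check them. The monocyte markers include the gate genes Ly6c2 and Hp. The macrophage gates did not exclude Ly6c2. It stood at 1232 CPM in WT and 1683 CPM in CD94-KO C1q macrophages, near the 1343 and 1659 CPM of monocytes. Nos2/Cxcl9 macrophages had 731 and 1264 CPM, those with both Arg1 and Nos2 or Cxcl9 305 and 541 CPM, and Arg1 macrophages 157 and 276 CPM. The part of all these markers in the results was not tested. A level is given in CPM, the gene's UMIs scaled to the UMI total of the gate and library, with its exact 95% Poisson interval in brackets. Lymphoid cells without counts of those macrophage genes (524 WT and 519 CD94-KO, median depths 6614 and 5938 UMIs) served as the background level. Lymphoid cells with such counts were left out, so this background may lie below the level of all lymphoid cells, which was not measured. A ratio is CD94-KO over WT.

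Promoter windows are shown for the receptor gene, for Spp1, which like Trem2 was highest in the Arg1 states, and for Plin2, which was higher in the CD94-KO library in every monocyte and macrophage state. RefSeq windows on GRCm38.p6 matched 8 of the 10 members. Lpl and Fabp5 did not match. Each line gives the 250 bases before the start of transcription, 5′ to 3′ on the gene's strand, with the letters that matched a searched motif in capitals. The windows are chr17:48346151-48346400 on the plus strand for Trem2, chr5:104434861-104435110 on the plus strand for Spp1 (the first of 2 windows listed) and chr4:86670060-86670309 on the minus strand for Plin2.
Trem2: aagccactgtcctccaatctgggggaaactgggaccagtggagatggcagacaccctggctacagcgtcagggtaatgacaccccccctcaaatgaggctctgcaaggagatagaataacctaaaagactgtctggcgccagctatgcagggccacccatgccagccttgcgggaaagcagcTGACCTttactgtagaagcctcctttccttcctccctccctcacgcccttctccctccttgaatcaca
Spp1: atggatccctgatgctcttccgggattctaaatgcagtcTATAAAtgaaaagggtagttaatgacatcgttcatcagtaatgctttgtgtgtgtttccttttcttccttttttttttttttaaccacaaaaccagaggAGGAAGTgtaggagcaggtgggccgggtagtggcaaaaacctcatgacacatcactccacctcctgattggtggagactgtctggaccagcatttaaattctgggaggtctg
Plin2: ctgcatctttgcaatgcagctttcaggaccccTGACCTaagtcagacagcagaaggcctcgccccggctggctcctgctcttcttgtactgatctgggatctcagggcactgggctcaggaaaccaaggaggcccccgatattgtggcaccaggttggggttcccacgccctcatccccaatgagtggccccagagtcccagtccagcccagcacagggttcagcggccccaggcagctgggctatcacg
Both strands were searched for 7 sets of letters. AGGAAGT is a form of the site of PU.1, a factor that myeloid cells depend on. AGGTCA is the half-site that nuclear receptors such as PPAR and LXR bind in pairs. CACGTG is the E-box bound by the lysosomal factors TFEB and MITF. TGAGTCA is the site of AP-1, a factor of activated cells. TTGCNNAA is a form of the site of the C/EBP factors of myeloid cells. GGGCGG is the GC box bound by factors such as SP1. TATAAA is the core promoter element bound by the TATA-binding protein. No match in the windows shown overlapped another. The Trem2 window held AGGTCA once, on the opposite strand, starting 68 bases before the gene's start, and the Plin2 window held it once, also on the opposite strand, starting 218 bases before. The Spp1 window held AGGAAGT once, 112 bases before the start, and TATAAA once, 211 bases before. Of all 32851 windows of this length, 14.0% held AGGTCA, 7.69% held AGGAAGT and 12.4% held TATAAA. The windows shown held none of the other letters searched, and all windows held CACGTG in 6.02%, TGAGTCA in 4.46%, TTGCNNAA in 9.56% and GGGCGG in 32.7%. These are letter matches in short windows and describe the sequence only. The Trem2 gene lies at chr17:48346401-48354147, Spp1 at chr5:104435118-104441050 and Plin2 at chr4:86648386-86670060 on GRCm38 (mm10), in the GENCODE annotation. In the same annotation Apoe lies at chr7:19696109-19699188, Gpnmb at chr6:49036546-49070929, Lpl at chr8:68880491-68907448, Fabp5 at chr3:10012548-10016607, Cd36 at chr5:17781690-17888801, Lgals3 at chr14:47367751-47386160 and Cd9 at chr6:125460266-125494791, all as protein-coding genes.

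Trem2, the receptor, was highest in the Arg1 macrophages, at 200 CPM [184 to 218] in WT and 174 CPM [162 to 186] in CD94-KO. Next came the macrophages with both Arg1 and Nos2 or Cxcl9, at 160 CPM [145 to 177] and 158 CPM [146 to 171]. The C1q macrophages had 84.8 and 97.3 CPM, the Nos2/Cxcl9 macrophages 64.8 and 77.9 CPM, monocytes 57.2 and 76.4 CPM and other base cells 50.7 and 34.5 CPM. In each library the 2 Arg1 states stood above these 4 groups without overlap of intervals, while the intervals of C1q and Nos2/Cxcl9 macrophages overlapped in both libraries. Arg1 macrophages held 3.50 times the Trem2 level of monocytes in WT and 2.27 times in CD94-KO. The monocyte gate did not exclude Arg1, which stood there at 865 CPM in WT and 1830 CPM in CD94-KO. Its part in the Trem2 levels of monocytes was not tested. In WT, 68.8% of Arg1 macrophages had a Trem2 UMI, against 33.9% of monocytes and 3.82% of lymphoid cells. In CD94-KO these shares were 64.0%, 41.3% and 1.35%.

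Outside the monocyte and macrophage gates Trem2 was low. It stood at 7.12 and 19.2 CPM in cDC2 and at 12 and 18.1 CPM in mregDC, against 4.70 and 1.85 CPM in lymphoid cells. The collagen-rich cells gave 2 WT UMIs and 1 CD94-KO UMI, 0.480 and 0.524 CPM, which is at or below the lymphoid level. Between libraries the pooled class stood at 113 CPM [107 to 120] in WT and 113 CPM [108 to 117] in CD94-KO, a ratio of 0.99 with an interval of 0.93 to 1.06. By state the ratio ran from 0.68 in the other base cells, with an interval of 0.41 to 1.13, to 1.34 in monocytes, with an interval of 1.14 to 1.57. Of the genes on a list of TREM2 signalling partners, 14 of 14 were measured, 1 stood at least 1.5-fold higher in CD94-KO and 0 lower, with a median log2 difference of 0.03. The gene that passed was Ms4a4a, at 6.98 CPM in WT and 10.6 CPM in CD94-KO, a membrane protein of the family linked to soluble TREM2. Tyrobp, named after its values were seen, stood at 2203 and 2344 CPM.

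**Figure D1:**
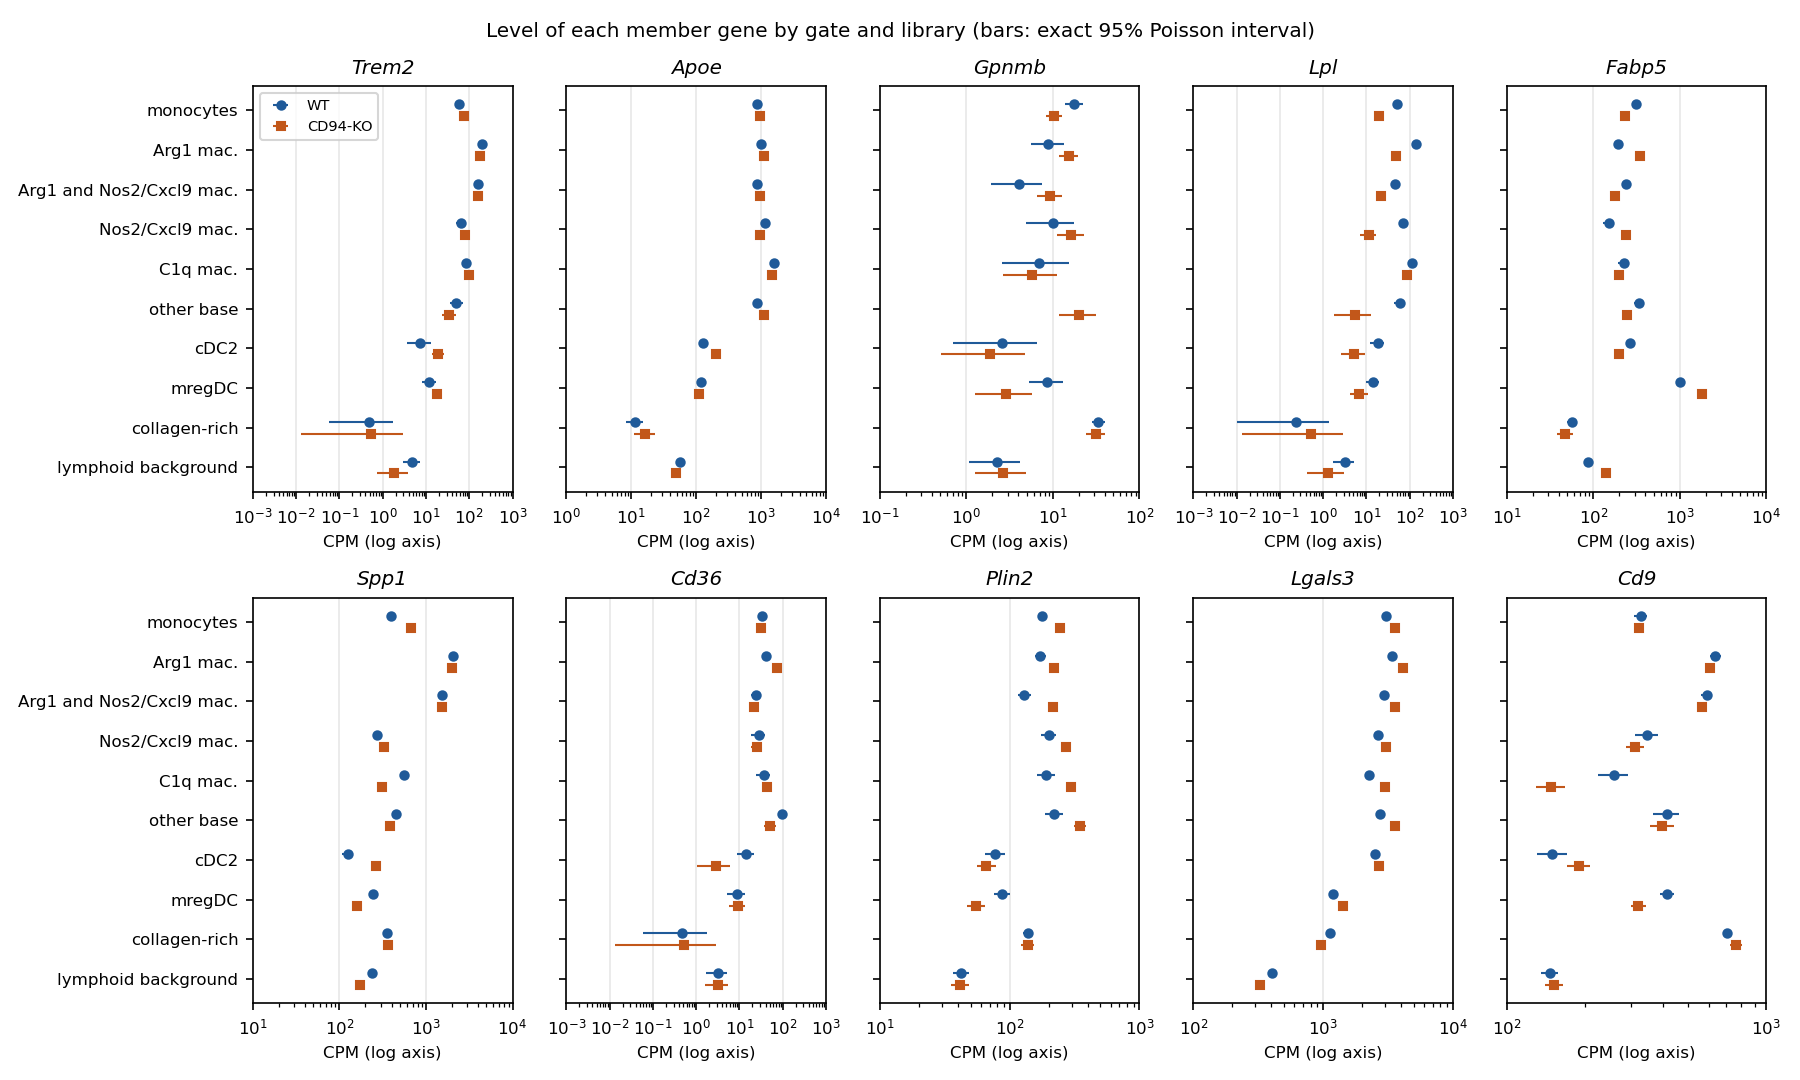
Level of each of the 10 genes (x axis, CPM, log scale, a scale of its own in each panel) in 10 gates (y axis) in the WT (circles) and CD94-KO (squares) libraries, with exact 95% Poisson intervals for counting error. Trem2 reaches 200 and 174 CPM in Arg1 macrophages and 0.480 and 0.524 CPM in collagen-rich cells, and the WT point of Gpnmb in other base cells is absent because no UMI was counted.

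Apoe, the lipoprotein ligand and cholesterol acceptor, had a flatter profile over the monocyte and macrophage states. It was highest in C1q macrophages, at 1587 CPM [1504 to 1674] in WT and 1481 CPM [1422 to 1543] in CD94-KO. Arg1 macrophages had 1013 and 1094 CPM and monocytes 866 and 957 CPM. The state with both Arg1 and Nos2 or Cxcl9 had 875 and 950 CPM, and other base cells 868 and 1108 CPM. The order of the remaining states differed between libraries: in WT the Nos2/Cxcl9 macrophages came second at 1162 CPM [1099 to 1227], whereas in CD94-KO they stood at 948 CPM [906 to 992] beside monocytes. The levels in cDC2 (127 and 204 CPM) and mregDC (120 and 111 CPM) were lower, with 55.5 and 48.8 CPM in lymphoid cells. Collagen-rich cells had 11.3 and 16.2 CPM, below the lymphoid level. In the pooled class Apoe stood at 983 and 1030 CPM, a ratio of 1.05 with an interval of 1.02 to 1.07.

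Spp1, which encodes the secreted matrix protein osteopontin, was highest, among the gates described, in the same states as Trem2. Arg1 macrophages had 2049 CPM [1994 to 2105] in WT and 1989 CPM [1949 to 2031] in CD94-KO, and the state with both Arg1 and Nos2 or Cxcl9 had 1514 CPM [1466 to 1564] and 1529 CPM [1490 to 1568]. The Nos2/Cxcl9 macrophages without Arg1 had 272 and 331 CPM. Monocytes had 390 and 665 CPM, so the Arg1 macrophages held 5.25 times the monocyte level in WT and 2.99 times in CD94-KO. Other base cells had 454 and 387 CPM. Lymphoid cells had 239 CPM in WT and 172 CPM in CD94-KO, and 38.0% and 27.4% of them had a Spp1 UMI. A few of them carried most of these UMIs: the 10 richest lymphoid cells held 53.6% and 60.5%, and without the richest 10% of cells the lymphoid level was 49.3 and 30.7 CPM. The cDC2 had 126 and 261 CPM and mregDC 243 and 161 CPM. After thinning to 1000 UMIs, a Spp1 UMI was found in 4.44% and 8.81% of cDC2 and in 7.69% and 6.31% of mregDC, against 10.9% and 8.32% of lymphoid cells, so only the CD94-KO cDC2 share was above that of lymphoid cells. C1q macrophages had 555 CPM in WT and 308 CPM in CD94-KO, with a Spp1 UMI in 43.3% and 34.8% of cells. Collagen-rich cells had 357 and 366 CPM, with a Spp1 UMI in 93.1% and 78.6% of cells at their greater depth and in 26.4% and 26.2% after thinning.

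Between libraries the Spp1 ratio had different directions by state. The pooled class stood at 1005 and 1043 CPM, a ratio of 1.04 with an interval of 1.01 to 1.06. Monocytes had a ratio of 1.71, with an interval of 1.61 to 1.81, but the share of monocytes with a Spp1 UMI was 46.9% in WT and 48.5% in CD94-KO. The 10 monocytes richest in Spp1 held 37.1% of the WT and 29.0% of the CD94-KO Spp1 UMIs. These 10 are a larger part of the WT monocytes, and the richest 10% of monocytes held 79.7% and 81.6%. When the monocyte gate was applied to cells thinned to 1000 UMIs the monocyte ratio was 0.998, over 52 and 118 cells. In the monocyte gate Arg1 stood at 865 and 1830 CPM, Nos2 at 72.0 and 182 CPM and the summed neutrophil markers at 626 and 157 CPM, and their part in the Spp1 ratio was not tested. C1q macrophages had a ratio of 0.55, with an interval of 0.49 to 0.63, and there the 10 richest cells held 82.0% and 74.3% of the UMIs.

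Cd9 and Lgals3 were also found well outside the macrophage gates. Cd9, a tetraspanin that organises membrane proteins, was higher in collagen-rich cells (707 CPM [681 to 733] in WT and 766 CPM [727 to 806] in CD94-KO) than in any monocyte or macrophage state. Among the latter it was highest in Arg1 macrophages, at 635 CPM [605 to 667] and 604 CPM [582 to 627], with the state with both Arg1 and Nos2 or Cxcl9 next at 589 CPM [559 to 620] and 567 CPM [543 to 591]. The intervals of these 2 states overlapped in both libraries. Monocytes had 328 and 324 CPM, Nos2/Cxcl9 macrophages 347 and 311 CPM, other base cells 413 and 397 CPM, and lymphoid cells 146 and 152 CPM. C1q macrophages were lowest in both libraries, at 258 and 148 CPM, with a ratio of 0.57 and an interval of 0.47 to 0.69. The CD94-KO level there, with 37.2% of cells positive, was no higher than in lymphoid cells, of which 53.2% were positive. In cDC2 Cd9 stood at 149 and 189 CPM and in mregDC at 413 and 322 CPM. In the pooled class Cd9 stood at 454 and 419 CPM, a ratio of 0.92 with an interval of 0.89 to 0.95.

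Lgals3, which encodes galectin-3, a sugar-binding protein, was detected in 98.3% of WT and 99.6% of CD94-KO cells of the pooled class, at 2982 and 3584 CPM. The CD94-KO level was the higher one in each of the 6 states, with ratios from 1.15 in Nos2/Cxcl9 macrophages (interval 1.10 to 1.20) to 1.32 in C1q macrophages (interval 1.26 to 1.40) and other base cells (interval 1.25 to 1.40). None of these reached 1.5-fold. Arg1 macrophages were highest, at 3382 and 4107 CPM, and C1q macrophages lowest, at 2266 and 3000 CPM. Monocytes had 3034 and 3551 CPM, the state with both Arg1 and Nos2 or Cxcl9 had 2955 and 3548 CPM, other base cells 2719 and 3598 CPM and Nos2/Cxcl9 macrophages 2651 and 3056 CPM. The collagen-rich cells went the other way, at 1137 CPM in WT and 955 CPM in CD94-KO, and lymphoid cells stood at 403 and 329 CPM. cDC2 had 2496 and 2711 CPM and mregDC 1193 and 1422 CPM.

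Gpnmb, a lysosome-linked membrane glycoprotein, was sparse in macrophages. In the pooled class 118 WT and 248 CD94-KO UMIs gave 10.2 CPM [8.41 to 12.2] and 11.9 CPM [10.4 to 13.4], with a UMI in 5.60% and 5.81% of cells against 1.34% and 1.93% of lymphoid cells. The collagen-rich cells had more, at 33.6 CPM [28.2 to 39.6] and 31.4 CPM [24.0 to 40.4]. Monocytes had 17.7 and 10.3 CPM and Arg1 macrophages 8.86 and 15.2 CPM. The ratio was 0.59 in monocytes (interval 0.42 to 0.82), where gates on thinned cells, with 52 and 118 monocytes, gave 1.59. It was 1.72 in Arg1 macrophages (interval 1.06 to 2.88), from 23 WT and 69 CD94-KO UMIs in the latter. The 10 richest cells held 91.3% and 75.4% of those UMIs. C1q macrophages had 6.97 and 5.80 CPM, Nos2/Cxcl9 macrophages 9.91 and 16.4 CPM, the state with both Arg1 and Nos2 or Cxcl9 4.05 and 9.24 CPM, and mregDC 8.57 and 2.90 CPM. In cDC2, at 2.59 and 1.88 CPM, the shares of 2.16% and 1.55% were at the background. WT other base cells had no Gpnmb UMI in 144 cells, which by a limit of 3 counts allows up to 2.08% of cells with a UMI at this depth, and CD94-KO other base cells had 18 UMIs, found in 5.52% of cells.

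Among the genes of lipid uptake and use, Lpl differed most between the libraries. Lipoprotein lipase releases fatty acids from triglyceride-rich lipoproteins. In the pooled class it stood at 76.6 CPM [71.6 to 81.8] in WT and 29.5 CPM [27.2 to 31.9] in CD94-KO, a ratio of 0.39 with an interval of 0.35 to 0.43. Of the 11157 genes with at least 20 UMIs in the pooled class, 0.601% had a lower ratio. An Lpl UMI was found in 18.4% of WT and 9.25% of CD94-KO cells, against 2.67% and 0.963% of lymphoid cells. After thinning each cell to 1000 UMIs the shares were 4.98% and 1.70%.

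The direction held in each of the 6 states, although not each by 1.5-fold. Arg1 macrophages had 139 CPM [125 to 154] in WT and 47.1 CPM [41.0 to 53.9] in CD94-KO, a ratio of 0.34. Monocytes had 51.5 and 19.9 CPM, a ratio of 0.39 with an interval of 0.31 to 0.48. The macrophages with both Arg1 and Nos2 or Cxcl9 had 46.5 and 21.3 CPM, a ratio of 0.46. The Nos2/Cxcl9 macrophages had 70.2 and 11.4 CPM, from 78 and 23 UMIs, and the other base cells 58.9 and 5.56 CPM, from 43 and 5 UMIs. The C1q macrophages stood at 110 CPM [89.3 to 135] and 85.0 CPM [71.1 to 101]. Their ratio of 0.77 had an interval of 0.59 to 1.01, which includes 1. A single CD94-KO C1q macrophage held 56 of the 132 UMIs there, and the 10 richest cells held 84.2% and 78.0%. Without the richest cell of each library, an alternative added after seeing the data, the C1q levels were 79.7 and 49.5 CPM and the ratio 0.62. Outside these states Lpl stood at 18.1 and 5.16 CPM in cDC2 and at 14.1 and 6.89 CPM in mregDC. In mregDC 1 WT cell held 27 of 33 UMIs, and without the richest cell of each library the ratio turned from 0.49 to 1.13.

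Lpl was carried by a minority of cells with many UMIs. Cells with at least 10 Lpl UMIs made up 1.56% of the WT and 0.411% of the CD94-KO pooled class, and cells with at least 3 made up 7.35% and 2.77%. The largest single-cell counts were 68 and 78 UMIs. The 10 cells richest in Lpl held 36.6% of the WT and 39.4% of the CD94-KO UMIs. These 10 are a larger part of the WT cells, and the richest 10% of cells held 88.2% and 100%. Without the 5% of cells with the most Lpl UMIs in each library, an alternative added after seeing the data, the pooled ratio was 0.19. With Lpl in 18.4% of WT and 9.25% of CD94-KO cells, that cut took a larger part of the CD94-KO cells with Lpl. The Nos2/Cxcl9 result rested on few cells, and there the 10 richest cells held 93.6% and 73.9% of the UMIs. Gating on cells thinned to 1000 UMIs left 17 and 49 Nos2/Cxcl9 macrophages and a ratio of 1.82. In C1q macrophages the ratio was 1.12 with every gate minimum doubled and 1.13 with a mitochondrial limit of 5%.

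**Figure D2:**
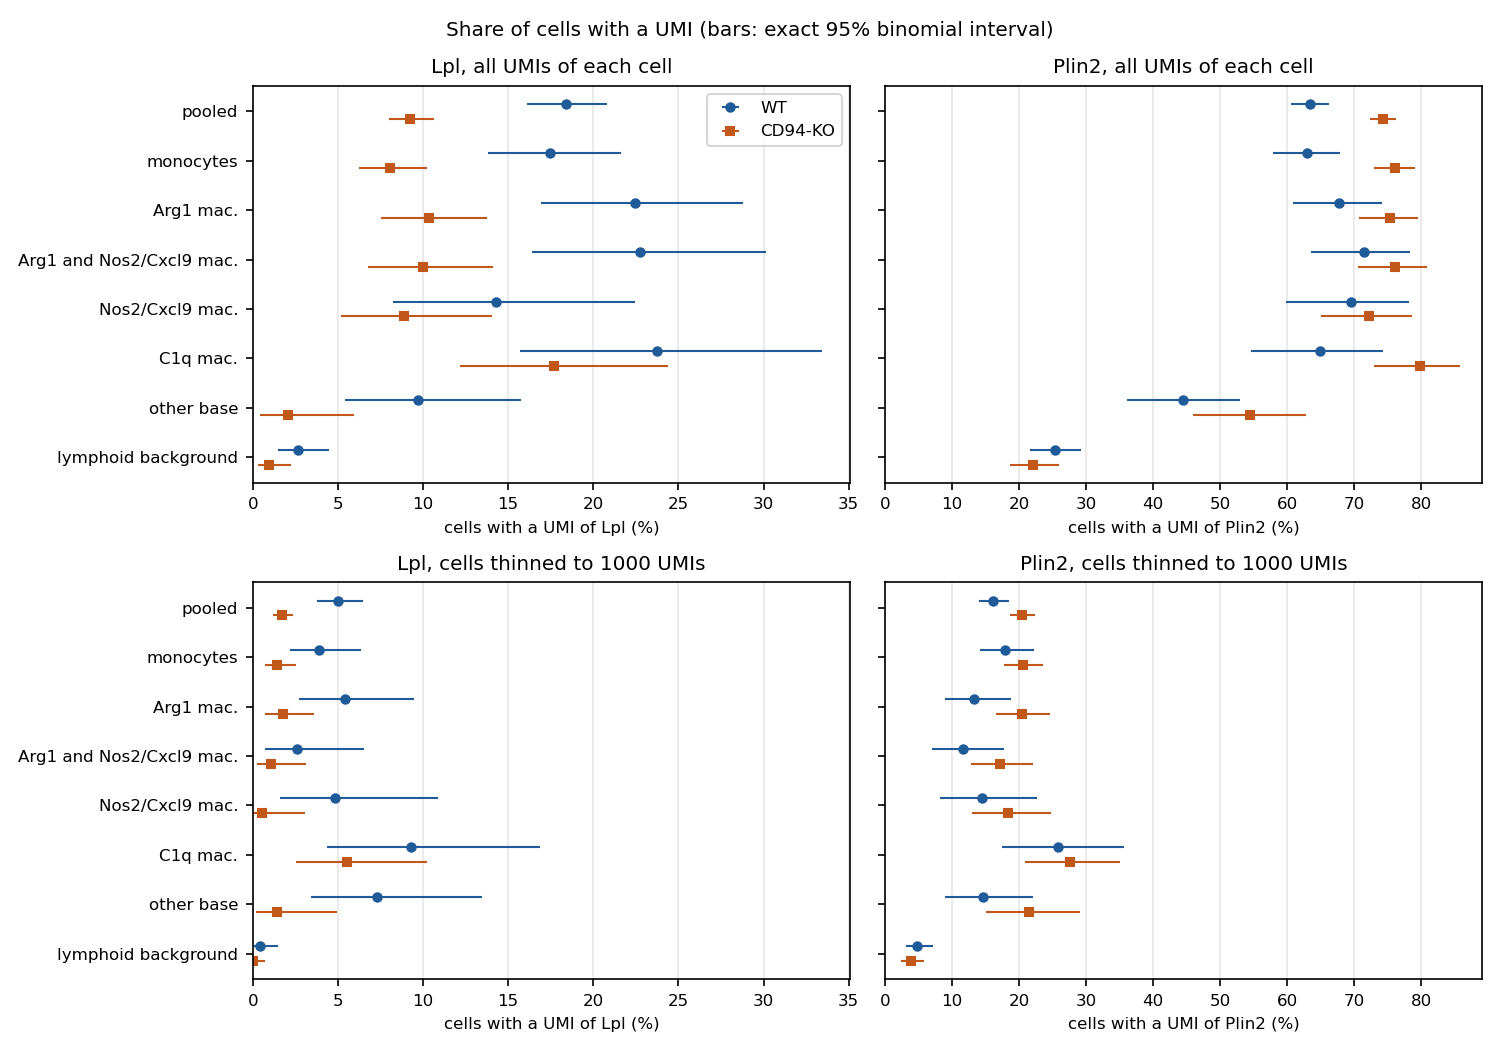
Share of cells (x axis, percent) with a UMI of Lpl (left) or Plin2 (right) in the pooled class, its 6 states and the lymphoid background (y axis), from all UMIs (top) and after thinning to 1000 UMIs (bottom), with exact 95% binomial intervals. Lpl-positive cells stand at 18.4% in WT and 9.25% in CD94-KO in the pooled class, and Plin2-positive cells stand at 63.5% and 74.3%.

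Plin2, which coats lipid droplets, went the other way. The pooled class stood at 172 CPM [165 to 180] in WT and 246 CPM [239 to 253] in CD94-KO, a ratio of 1.43 with an interval of 1.36 to 1.5, and 95.2% of genes had a lower ratio. The 1.5-fold limit was not reached in the pooled class. All 6 states had more in CD94-KO. The macrophages with both Arg1 and Nos2 or Cxcl9 had 130 and 216 CPM, a ratio of 1.67 with an interval of 1.46 to 1.90. The other base cells had 219 and 349 CPM, a ratio of 1.59, and C1q macrophages 192 and 298 CPM, a ratio of 1.56. Monocytes had 178 and 246 CPM, a ratio of 1.38, Nos2/Cxcl9 macrophages 201 and 272 CPM, a ratio of 1.35, and Arg1 macrophages 172 and 221 CPM, a ratio of 1.29. No interval included 1. A Plin2 UMI was found in 63.5% of WT and 74.3% of CD94-KO cells of the pooled class, and in 16.2% and 20.5% after thinning. The 10 richest cells held 7.59% and 4.56% of the UMIs, so the level was spread over many cells.

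In cDC2, mregDC, collagen-rich and lymphoid cells Plin2 was not higher in CD94-KO. mregDC had 87.8 CPM [76.2 to 101] in WT and 55.2 CPM [46.7 to 64.7] in CD94-KO, a ratio of 0.63, but gates on thinned cells gave 1.04 there. The values were 77.6 and 66.1 CPM in cDC2, 139 and 138 CPM in collagen-rich cells and 42.5 and 41.4 CPM in lymphoid cells. The mregDC gate also held summed collagen-rich markers of 254 CPM in WT and 167 CPM in CD94-KO, all 8 detected, whose part in the mregDC values was not tested. Hilpda, another lipid droplet protein, stood at 236 and 338 CPM in the pooled class, a ratio of 1.43 with an interval of 1.37 to 1.5. Hilpda was named after its values were seen, from a list of 15 measured lipid storage genes with a median log2 difference of 0.04. On that list Dgat1 had a ratio of 0.78, Plin3 0.91, Pnpla2 1.04 and G0s2 1.11.

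Fabp5, the fatty acid carrier, was highest in mature dendritic cells. mregDC had 1001 CPM [961 to 1043] in WT and 1782 CPM [1732 to 1832] in CD94-KO, a ratio of 1.78 with an interval of 1.69 to 1.87, and 73.2% and 76.8% of cells had a UMI. The pooled monocytes and macrophages had 250 and 245 CPM, a ratio of 0.98 with an interval of 0.94 to 1.03. Inside the pooled class the states diverged. Arg1 macrophages had 190 and 349 CPM, a ratio of 1.83, while the share of positive cells was 56.1% and 55.7%. Monocytes had 313 and 230 CPM and the macrophages with both Arg1 and Nos2 or Cxcl9 had 241 and 177 CPM, both with a ratio of 0.73. In Nos2/Cxcl9 macrophages a ratio of 1.61 rested on 10 cells that held 76.0% of the CD94-KO UMIs, and without the 5% of cells richest in Fabp5 it was 0.63. The levels there were 150 and 242 CPM, and without the single richest cell of each library the ratio was 0.91. C1q macrophages had 224 and 196 CPM, other base cells 339 and 245 CPM and cDC2 263 and 197 CPM. Lymphoid cells had 86.8 and 139 CPM. A single CD94-KO lymphoid cell held 323 of 527 UMIs, and without the richest cell of each library the lymphoid levels were 71.7 and 54.1 CPM.

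Cd36, the scavenger receptor for oxidised lipoproteins and long-chain fatty acids, stood at 36.9 CPM [33.5 to 40.6] in WT and 39.9 CPM [37.2 to 42.7] in CD94-KO in the pooled class, with a UMI in 15.1% and 16.4% of cells. Arg1 macrophages had 42.0 CPM [34.5 to 50.7] and 72.9 CPM [65.3 to 81.2], and the ratio was 1.74. Other base cells had 97.3 CPM [76.0 to 123] and 51.2 CPM [37.5 to 68.2], and the ratio was 0.53. The direction in Arg1 macrophages depended on the gate: with gates on thinned cells the ratio was 0.78 over 57 and 97 cells, and that of other base cells was 1.17. Monocytes had 32.8 and 31.8 CPM, C1q macrophages 36.0 and 43.8 CPM, Nos2/Cxcl9 macrophages 27.9 and 24.8 CPM and the state with both Arg1 and Nos2 or Cxcl9 24.7 and 21.6 CPM. The level was 14.2 and 2.81 CPM in cDC2, from 22 and 6 UMIs, and 8.57 and 9.07 CPM in mregDC, with 3.13 and 3.17 CPM in lymphoid cells.

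Counted together, the 10 genes did not form a block that differed between the libraries. In the pooled class 0 of 10 were at least 1.5-fold higher in CD94-KO and 1 of 10, Lpl, at least 1.5-fold lower, against 3.80% and 5.63% of the 11157 genes with at least 20 UMIs. All 10 passed that minimum. Their median log2 difference was 0.06, and that of all genes was -0.01. The log2 differences were taken on CPM with 5 added.

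By state the counts were as follows. In monocytes 1 member was higher (Spp1) and 2 lower (Lpl and Gpnmb), against 6.98% and 3.97% of genes. In Arg1 macrophages 3 were higher (Fabp5, Cd36 and Gpnmb) and 1 lower (Lpl), against 6.42% and 6.71%. In the macrophages with both Arg1 and Nos2 or Cxcl9, 2 were higher (Gpnmb and Plin2) and 1 lower (Lpl), against 5.27% and 8.53%. In Nos2/Cxcl9 macrophages 2 were higher (Gpnmb and Fabp5) and 1 lower (Lpl), against 10.9% and 5.80%. Both of the higher ones turned with doubled gate minimums, to 0.55 for Gpnmb and 0.93 for Fabp5, and the Gpnmb ratio of 1.65, from 11 and 33 UMIs, had an interval of 0.81 to 3.62. In C1q macrophages, where 9 of 10 members had 20 UMIs, 1 was higher (Plin2) and 2 lower (Spp1 and Cd9), against 8.96% and 9.28%. In other base cells, where 9 of 10 members had 20 UMIs, 1 was higher (Plin2) and 2 lower (Lpl and Cd36), against 8.66% and 10.3%. Lpl was a lower member in 5 of these 6 gates, and no other member passed 1.5-fold in 1 direction in more than 3 of them.

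The dendritic cell gates were counted in the same way. In cDC2, where 9 of 10 members had 20 UMIs, 3 were higher (Trem2, Spp1 and Apoe) and 2 lower (Cd36 and Lpl), against 9.93% and 6.20% of genes. Trem2 there rested on 11 and 41 UMIs, a ratio of 2.70 with an interval of 1.36 to 5.83. Apoe had a ratio of 1.60, with 10 cells holding 77.2% of the WT and 79.5% of the CD94-KO UMIs, and gates on thinned cells gave 0.69. The Spp1 ratio in cDC2 was 0.84 without the 5% richest cells, and that of Lpl was 1.12 with a mitochondrial limit of 5%. The cDC2 gate also held summed monocyte markers of 2642 CPM in WT and 3113 CPM in CD94-KO. Summed cDC2 markers there were 1739 and 1400 CPM, and Arg1 stood at 250 and 455 CPM. Their part in the cDC2 ratios was not tested. In mregDC 2 were higher (Fabp5 and Trem2) and 4 lower (Gpnmb, Lpl, Plin2 and Spp1), against 11.6% and 15.2%. The Trem2 ratio of 1.51 had an interval of 0.93 to 2.50, and the share of mregDC with a Trem2 UMI was 8.92% in WT and 6.25% in CD94-KO. With each cell weighed the same the Trem2 ratio was 0.75, and without the 5% richest cells 0.29. Of the lower members in mregDC, Lpl turned to 1.47 with doubled gate minimums and 1.54 with gates on thinned cells, Plin2 to 1.04 with the latter, and Spp1 to 1.24 with the highest Scrublet (doublet) scores kept. In the collagen-rich cells 7 of 10 members had 20 UMIs and 0 passed 1.5-fold in either direction. The share of all genes past 1.5-fold was not computed for that gate, so this count has no background.

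**Figure D3:**
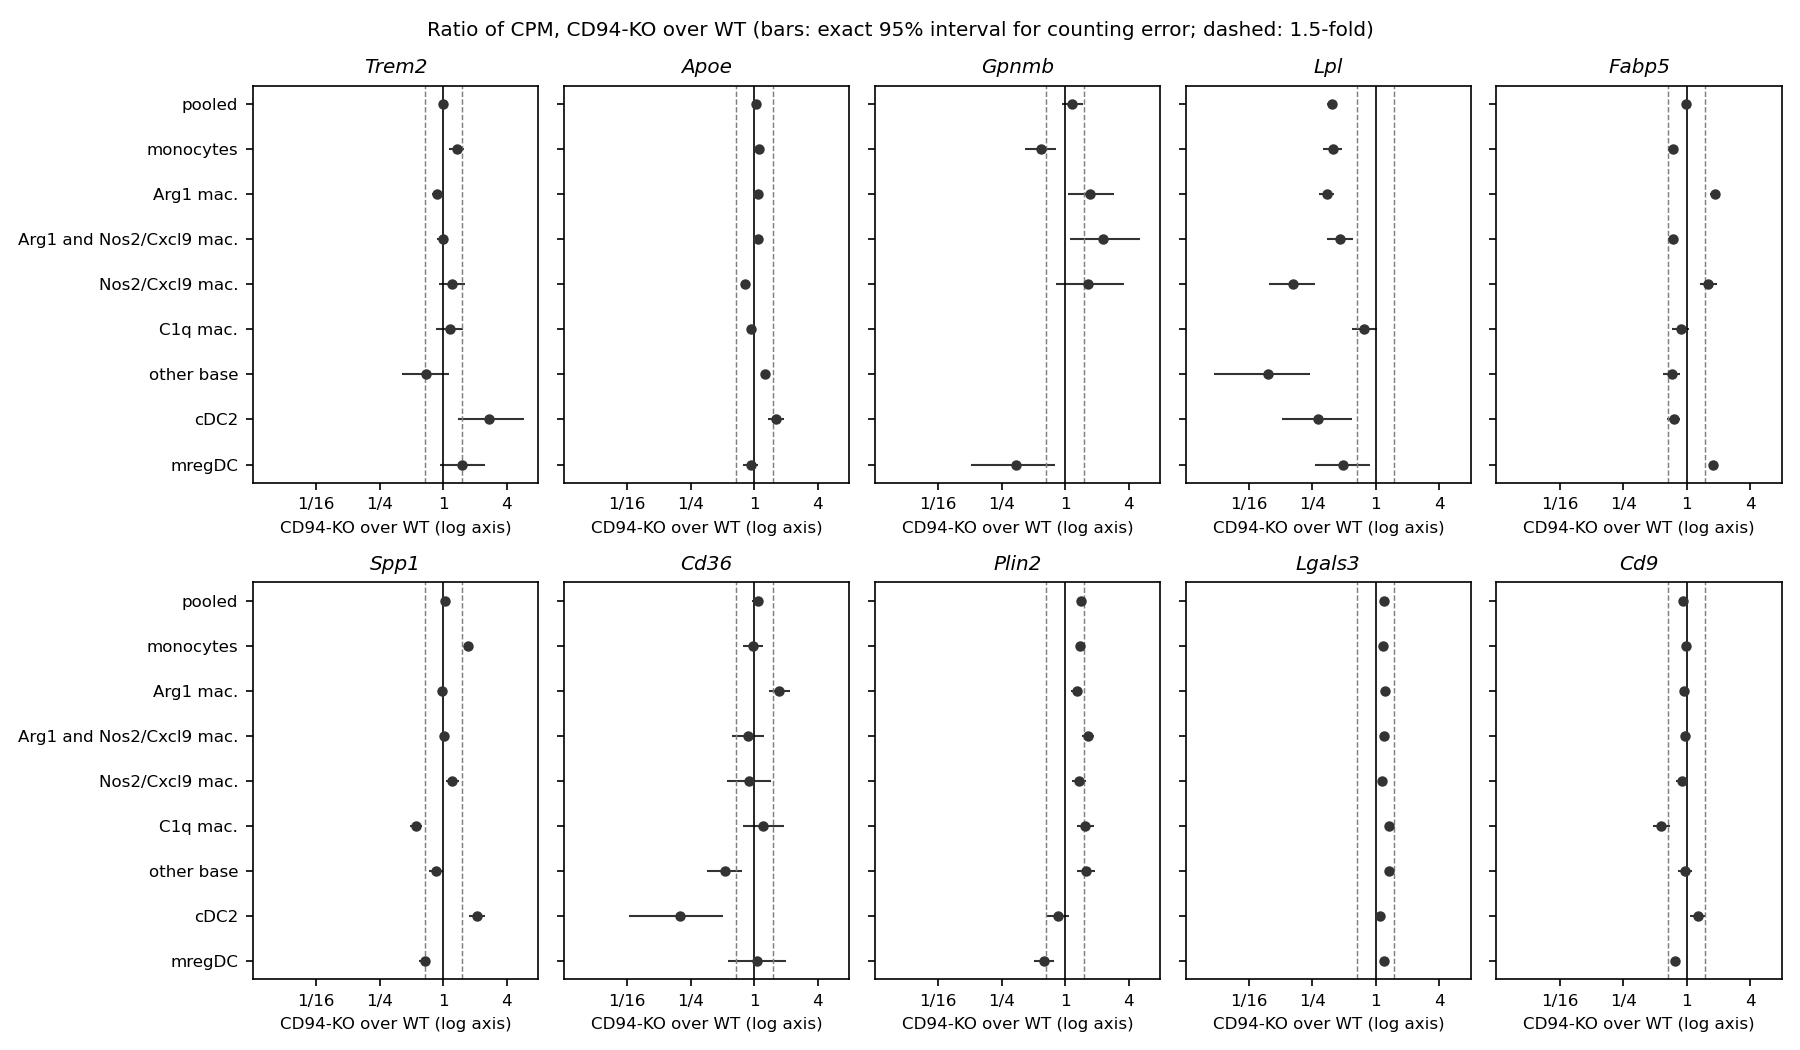
Ratio of CPM, CD94-KO over WT (x axis, log scale), for each of the 10 genes in the pooled class, its 6 states, cDC2 and mregDC (y axis), where at least 20 UMIs were counted over both libraries. Bars are exact 95% intervals for counting error and dashed lines mark 1.5-fold. Lpl lies left of 1 in every row, Plin2 and Lgals3 lie right of 1 in the pooled class and its 6 states, and the other members lie on both sides.

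The wider pathway was read from lists of partner genes in the pooled class. Of the lipid uptake receptors, 10 of 12 had 20 UMIs, and 0 were 1.5-fold higher and 0 lower, with a median log2 difference of 0.06. Of the genes of LXR signalling and cholesterol efflux, 10 of 12 were measured, 0 were higher and 1 lower, with a median of -0.05. The lower one was Apoc1, an apolipoprotein encoded beside Apoe, at 8.09 CPM in WT and 5.30 CPM in CD94-KO. Of the genes of PPAR-linked and hypoxia-linked lipid storage, 15 of 17 were measured, 1 was higher and 0 lower, with a median of 0.04. It was Fabp4, another fatty acid carrier, at 1.98 and 3.30 CPM, which the 100 UMI minimum for named genes would have left out.

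Genes of cholesterol and fatty acid synthesis had the lowest median of the lists, at -0.20. Of 16 measured, 0 were higher and 1 lower by 1.5-fold. That gene was Fasn, fatty acid synthase, at 14.7 CPM in WT and 9.75 CPM in CD94-KO, a ratio of 0.66 with an interval of 0.54 to 0.82. Lysosomal lipid genes, 16 of 16 measured, had 0 higher and 0 lower and a median of 0.03. Of the genes reported with Trem2 in microglia and tumour macrophages, 14 of 16 were measured, 0 were higher and 1 lower, with a median of -0.01. It was Igf1, a growth factor, at 5.34 CPM in WT and 2.25 CPM in CD94-KO, a ratio of 0.42 with an interval of 0.28 to 0.62. None of the list medians was tested, and the background for each count is the 3.80% and 5.63% given for the pooled class.

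Within single macrophages the members differed in how often they were found together. The 4 macrophage states were pooled, each cell was thinned to 2000 UMIs and 18 WT and 12 CD94-KO shallower cells were left out. A Trem2 UMI was then found in 117 of the WT and 220 of the CD94-KO cells and was absent from 426 and 789. Apoe was found in 54.7% of WT cells with Trem2 and 48.6% of those without, and in 64.1% and 51.2% in CD94-KO. Spp1 was found in 67.5% and 43.4% in WT and in 50.9% and 43.9% in CD94-KO. Plin2 went the other way, at 23.9% with Trem2 and 28.2% without in WT and 28.6% and 35.5% in CD94-KO. Arg1, which took part in the gates, was found in 81.2% and 57.5% in WT and in 80.9% and 64.0% in CD94-KO. The pooled states differed in their levels of these genes, and the part of their mix in these shares was not tested.

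A split by Spp1 was added after seeing the data. The pooled states differed in level before any split. In WT, Spp1 stood at 2049 CPM in Arg1 and 272 CPM in Nos2/Cxcl9 macrophages, and Ly6c2 at 157 and 731 CPM. The part of the mix of states in the shares below was not tested. Spp1 was found in 264 WT and 458 CD94-KO macrophages and was absent from 279 and 551. Cd9 was found in 63.3% of WT cells with Spp1 and 38.7% of those without, and in 59.8% and 36.1% in CD94-KO. The mean Cd9 count per thinned cell was 1.29 ± 1.38 (SD over 264 cells) with Spp1 and 0.681 ± 1.15 (SD over 279 cells) without in WT, and 1.30 ± 1.62 and 0.603 ± 1.04 in CD94-KO. Apoe was the reverse, found in 41.3% with Spp1 and 58.1% without in WT and in 47.6% and 59.3% in CD94-KO. Ly6c2, a monocyte marker, was found in 18.9% and 42.7% in WT and in 25.5% and 53.4% in CD94-KO. Trem2 was found in 29.9% and 13.6% in WT and in 24.5% and 19.6% in CD94-KO. Cells of 1 library are not replicates, and no test was made of these shares.

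**Figure D4:**
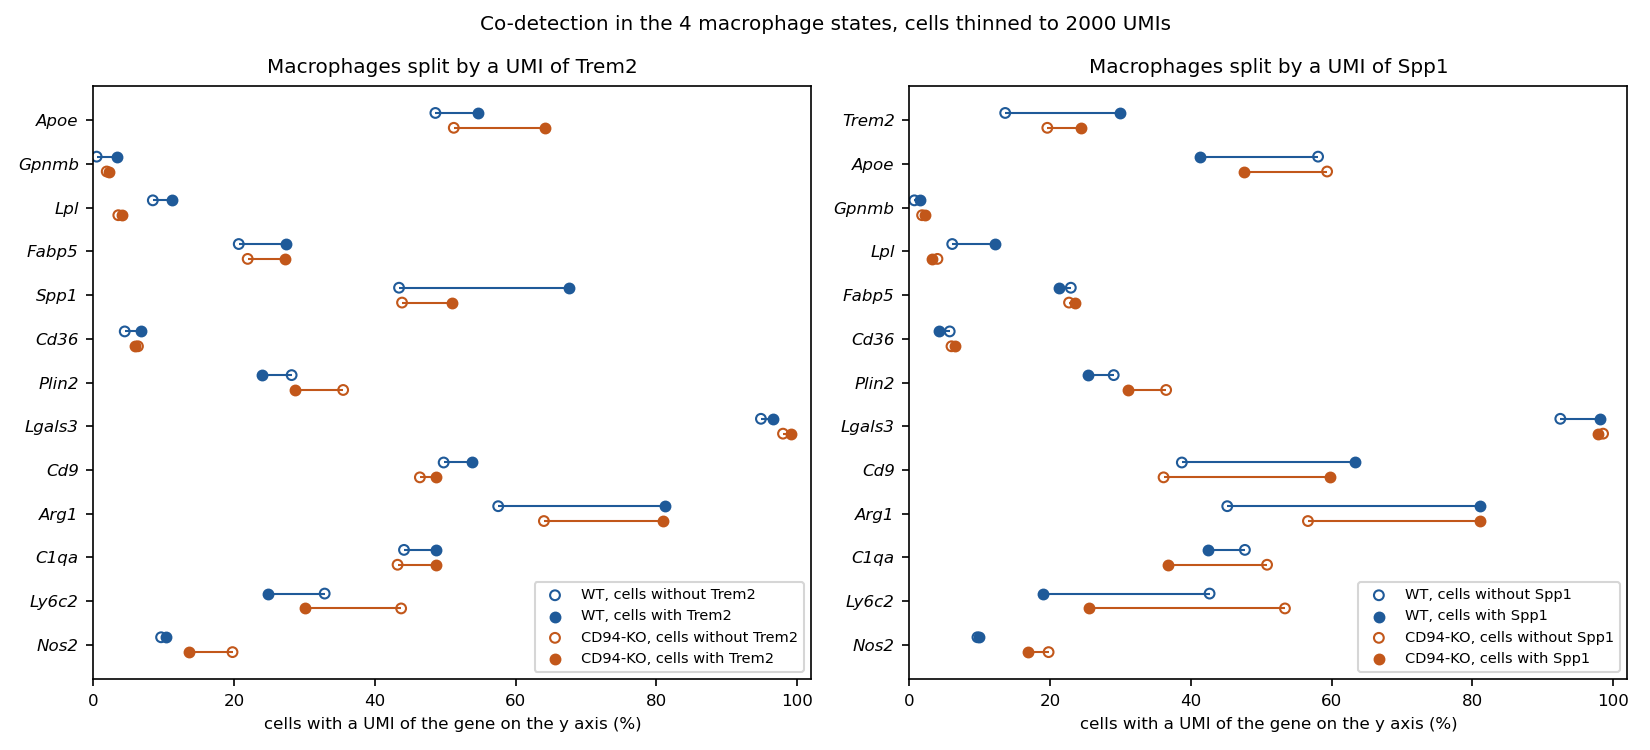
Share of macrophages of the 4 states, thinned to 2000 UMIs (x axis, percent), with a UMI of each gene (y axis), in cells with (filled) and without (open) a UMI of Trem2 (left) or Spp1 (right), in the WT and CD94-KO libraries. Cd9 moves from 38.7% to 63.3% in WT and from 36.1% to 59.8% in CD94-KO with Spp1, while Apoe moves from 58.1% to 41.3% and from 59.3% to 47.6%.

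Across gates the genes with profiles most like those of Trem2, Spp1 and Apoe were also listed. Profiles were log2 of CPM with 5 added over 21 points, each a gate in a library with at least 50 cells, and 4713 genes were compared. The points of a library share its depth and free RNA, so the coefficients describe these profiles only. For Trem2 the highest Pearson coefficients were those of Abca1 (0.97), the cholesterol exporter, Gpalpp1 (0.96), Olr1 (0.94), a receptor for oxidised lipoprotein, Fn1 (0.94) and Msr1 (0.94), a scavenger receptor. For Apoe they were C5ar1 (0.98), Slc11a1 (0.97), Thbs1 (0.97), Clec4e (0.97) and Cndp2 (0.97), of which C5ar1 is the complement C5a receptor. For Spp1 they were Egln3 (0.94), an oxygen-sensing enzyme induced by hypoxia, Cpd (0.90), Errfi1 (0.89), Aldoa (0.89), a glycolytic enzyme, and Vegfa (0.89), the vascular growth factor. Between members the coefficient was 0.92 for Trem2 with Apoe, 0.80 for Spp1 with Cd9 and 0.20 for Trem2 with Fabp5.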

How the data were processed

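Live CD45+ tumour cells of 1 WT and 1 CD94-KO library were analysed. The deposited values are raw UMI counts per gene and barcode, written by Cell Ranger 5.0.0 according to the deposited headers. Barcodes that were no cells had been filtered by the authors, per the labels' protocols. Per the submitters' processing notes, mm10 was the build, and Seurat 4.0 was among the tools. The annotation behind the counts is not given in the sources used here. WT had 5358 barcodes and 40261366 UMIs, and CD94-KO had 5175 and 46107433.

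Barcodes with at least 500 UMIs, 300 genes and under 10% mitochondrial UMIs were kept. Scrublet, as supplied in scanpy 1.11.5, marked 0 WT and 1 CD94-KO cell, so its threshold had not worked and the 4% with the highest scores were removed, 183 and 191 cells. Cells were gated by raw marker UMIs, and 1 gene used in the gates is not reported here. Barcodes with markers of several lineages (217 WT and 140 CD94-KO) and barcodes in no gate (1899 and 1143, with median depths of 795 and 1814 UMIs) were left out. UMIs were summed per gate and library. Levels have exact 95% Poisson intervals, ratios exact conditional binomial intervals and shares exact Clopper-Pearson intervals, computed with scipy 1.17.1. A ratio counted when it reached 1.5-fold among genes with at least 20 UMIs. No test was run, because each group is 1 library. The interval code was tested on simulated data. Levels of every member are given in each gate with at least 50 cells in both libraries. Of each partner list, up to 4 genes past 1.5-fold in each direction with at least 100 UMIs are named, and for Trem2, Spp1 and Apoe the 5 most similar profiles. The members and lists were chosen with earlier results of these data known. Alternatives changed the depth minimum, gates, doublet removal, mitochondrial limit, scaling (with edgeR 4.0.16), weighting, the cells richest in a member, UMI minimum and pseudocount.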

Additional observations from a re-analysis of the deposited data

Results flagged for a closer look

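For 4 members the libraries differed by at least 1.5-fold in opposite directions in different gates, with both intervals on their own side of 1, and the difference between gates was not tested. Gpnmb had a ratio of 2.28 in the macrophages with both Arg1 and Nos2 or Cxcl9, from 10 WT and 36 CD94-KO UMIs, and 0.34 in mregDC, from 20 and 8 UMIs. Spp1 had a ratio of 2.08 in cDC2 and 0.55 in C1q macrophages, and without the 5% of cells richest in Spp1 the cDC2 ratio was 0.84. Cd36 had a ratio of 1.74 in Arg1 macrophages, which fell below 1 with gates on thinned cells. In cDC2 the Cd36 ratio was 0.20, from 22 WT and 6 CD94-KO UMIs. Plin2 had a ratio of 1.67 in the macrophages with both Arg1 and Nos2 or Cxcl9 and 0.63 in mregDC, and gates on thinned cells gave 1.04 in mregDC.

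Barcodes with markers of several lineages, which entered no comparison, also held member UMIs. Trem2 stood at 80.3 CPM in WT and 106 CPM in CD94-KO in these barcodes, against 4.70 and 1.85 CPM in lymphoid cells. Lpl stood at 66.7 CPM in WT and 21.2 CPM in CD94-KO, against 3.13 and 1.32 CPM in lymphoid cells.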

How the results depend on the processing

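The pooled Lpl ratio was below 1 under all 11 alternatives run for it, from 0.19 to 0.42, and the pooled Plin2 ratio was above 1 under all 11, from 1.39 to 1.63. The Lpl value of 0.19 came without the 5% of cells richest in Lpl, an alternative chosen after seeing the data. That cut took a larger part of the CD94-KO than of the WT cells with Lpl, which lowers the ratio. Gates on cells thinned to 1000 UMIs, which left 303 WT and 557 CD94-KO cells in the pooled class, gave a Plin2 ratio of 1.63, so that 1 member in place of 0 was at least 1.5-fold higher. The count of lower members was 1 under every alternative. No paired analysis was possible because each group has 1 library.

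Direction changed for single members in single gates. With doubled gate minimums the ratio was 0.55 for Gpnmb and 0.93 for Fabp5 in Nos2/Cxcl9 macrophages and 1.47 for Lpl in mregDC. With gates on thinned cells it was 1.59 for Gpnmb and 0.998 for Spp1 in monocytes, 0.78 for Cd36 in Arg1 macrophages, 1.82 for Lpl in Nos2/Cxcl9 macrophages, 1.17 for Cd36 in other base cells, 0.69 for Apoe in cDC2, and 1.54 for Lpl and 1.04 for Plin2 in mregDC. With the highest Scrublet scores kept it was 1.24 for Spp1 in mregDC, and with a mitochondrial limit of 5% it was 1.12 for Lpl in cDC2. With each cell weighed the same it was 0.75 for Trem2 in mregDC. Without the 5% richest cells it was 0.63 for Fabp5 in Nos2/Cxcl9 macrophages, 0.84 for Spp1 in cDC2 and 0.29 for Trem2 in mregDC. Without the single richest cell of each library, also chosen after seeing the data, it was 0.91 for Fabp5 in Nos2/Cxcl9 macrophages and 1.13 for Lpl in mregDC. The cause of these changes was not tested, beyond the smaller number of cells that stricter gates leave. Depth limits Gpnmb, Cd36 and Lpl in cDC2 and mregDC, where a library holds at most 33 UMIs of each.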

Other observations

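Barcodes that met no gate were shallow, and among them Spp1 stood at 522 CPM in WT and 361 CPM in CD94-KO, Gpnmb at 11.6 and 30.0 CPM and Cd36 at 18.4 and 38.2 CPM. Lpl there stood at 17.6 and 14.6 CPM. In macrophages split by an Lpl UMI, a split chosen after seeing the data, 49 WT and 37 CD94-KO thinned cells had Lpl. Of these, 65.3% in WT and 40.5% in CD94-KO had Spp1, against 47.0% and 45.6% of the cells without Lpl. The part of the mix of macrophage states in these shares was not tested. The profile of Cd9 over the gates was most like those of Tpi1 (Pearson coefficient 0.92), Pgk1 (0.92) and Pgam1 (0.91), which are glycolytic enzymes, and that of Plin2 most like Sgms2 (0.93), over the same 21 points and chosen after seeing the data.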
